A study of Gallus gallus with 8 samples.

Results

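Of the 30246 regions marked by peaks in broiler (Gallus gallus) liver, 2066 lay in all 4 PT peak lists and in none of the 4 HT lists, 6.83% of the regions compared. These PT-only regions were chosen by merging peaks of the 8 lists that overlapped or touched, and keeping regions with at least 1 bp of peak in every PT list and no peak in any HT list. Presence in the lists therefore defined the set, and its presence in PT and absence from HT is not a finding. The mirror set, regions in all 4 HT lists and in no PT list (HT-only), had 4234 regions (14%). The profiles are CUT&Tag of Nrf2, in which an antibody guides a transposase to cut and tag DNA beside the bound protein. Each list holds the chromosome, start, end and score of the peaks of 1 sample, on the galGal6 build, and the 8 lists hold 66669 peaks.

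The groups are 4 broiler liver samples called PT and 4 called HT. For HT, the labels give high temperature as treatment. For PT, they name phloretin, a plant polyphenol, as the treatment type, while the description of the same samples reads normal, and the protocol field gives heat for all 8 samples. What the PT birds received is thus not settled by the labels. Age and sex of the birds are not given, nor whether each sample of a group is a bird of its own. Peaks come without read numbers, and the depth behind each is therefore unknown. The files carry no marker of liver cells, so the tissue could not be checked against one.

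Nrf2 is a transcription factor of the cap'n'collar family that pairs with small Maf proteins and binds antioxidant response elements in promoters and enhancers. In unstressed cells the adaptor KEAP1 holds it and directs its breakdown. Oxidants and electrophiles release it, and it then raises genes of glutathione synthesis, NADPH supply and detoxification, pathways that are prominent in liver. Whether the regions described here hold that element or lie near such genes was not analysed, since no galGal6 sequence or gene annotation was used.

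The PT-only regions were the larger part of what the PT lists had in common. All 4 PT lists held 3140 regions, of which 65.8% were in no HT list. Of the rest, 151 were in a single HT list, 90 in 2, 105 in 3 and 728 in all 4. Absence from the HT lists was not particular to regions in all 4 PT lists. Over all regions with a PT peak, the share in no HT list was above this 65.8%. Of 13004 regions with a PT peak, 7371 were in 1 PT list and no HT list, and 797 in 2 and no HT list. Just outside the rule on the PT side, 710 regions were in 3 PT lists and no HT list. Of these, 570 lacked only PT list 4, against 40, 37 and 63 that lacked only PT list 1, 2 or 3. The 570 had a median width of 459.5 bp, and 82 of them were under 260 bp. PT list 4 thus stands apart from the other PT lists at the edge of the rule, and without it the set had 2641 regions.

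The PT lists gave largely the same ends for these regions. In 2057 of the 2066 regions each PT list had a single peak, and in 1293 of these (62.9%) all 4 lists gave the same start and the same end to the base. In another 621 (30.2%) all lists but one did so, in 116 a single pair did, in 4 the lists matched as 2 and 2, and in 23 no lists matched. The corresponding shares in the HT-only regions were 50.7% for all 4 HT lists, 26.3% for all but one and 3.98% for none. The difference between the sets was not tested. Whether the lists come from separate libraries was not tested, so ranges and SDs over the 4 PT lists below describe the lists and may not measure the spread between birds.

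When a single list differed from the other three, it was most often PT list 4 and usually the wider peak. PT list 4 was the odd one in 305 of the 621 regions, PT list 3 in 168, PT list 1 in 110 and PT list 2 in 38. The odd peak was the wider one in 240 of the 305 regions for PT list 4, and in 158, 107 and 34 for PT lists 3, 1 and 2. Pairs of lists followed the same order. PT lists 1 and 2 shared both ends in 88.1% of the regions, and PT lists 2 and 3 in 84.4%. The lowest share was 70.5%, for PT lists 3 and 4.

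Where ends differed, mostly a single end had moved. PT lists 1 and 2 differed in 245 regions, in 226 of them at a single end, and PT lists 3 and 4 in 606, in 518 of them at a single end. Over all pairs, 91.6% to 96.3% of the differing peaks lay one inside the other. Overlapping peaks that share an end do so by definition, so these shares mostly repeat the single-end counts. The same start was given by all 4 lists in 1637 regions and the same end in 1583. Differing ends lay a median of 137 bp apart (quartiles 54 and 230 bp, 2905 offsets over the 6 pairs), and 4.82% of the offsets were under 10 bp. Every one of the 2057 regions had bases common to all 4 lists.

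**Figure D1:**
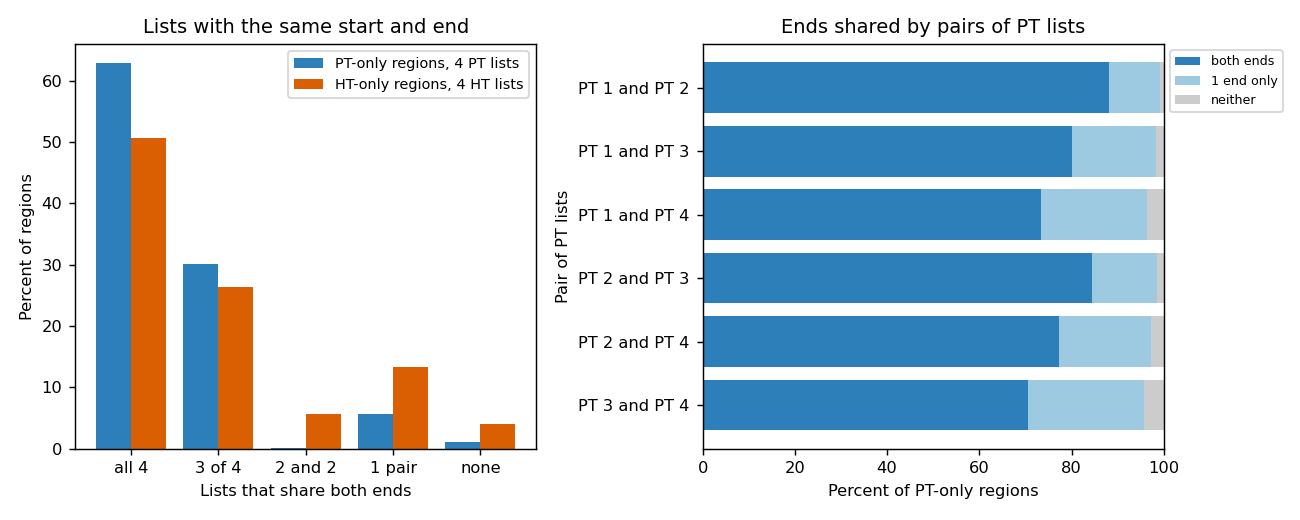
Left, percent of PT-only (blue) and HT-only (orange) regions by how many of the 4 lists of the group gave the same start and end. Right, for each pair of PT lists, the percent of PT-only regions in which both ends, 1 end or neither end matched. All 4 lists matched in 62.9% of the PT-only regions, and PT list 4 shared the fewest ends with each of the other lists.

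The 23 regions with no matching lists did not rank low by score. Their median width was 671 bp, and their median score percentile, the rank of a peak's score among all peaks of its list averaged over the 4 lists, was 63.0. The score is the authors' caller's own value, and its scale is not stated. The highest-ranked of the 23 was chr9:5455560-5456581, also the highest of all PT-only regions on chromosomes 6 to 10. Its peak scores were 149.81, 196.57, 238.93 and 218.89 in PT lists 1 to 4. Its peaks were 869, 665, 536 and 657 bp wide, so the lowest score belonged to the widest peak.

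Next on a numbered chromosome was chr1:67257332-67258242, with scores of 93.26, 103.44, 109.09 and 98.56. In this region 3 lists shared the start at 67257512 and none shared an end. In chr1:144002015-144002730 all 4 lists started at the same base and ended at 4 different ones, with peaks of 434, 398, 561 and 716 bp. The reverse held in chr4:71300320-71300789, where all 4 ended at the same base and started at different ones, with peaks of 416, 430, 470 and 375 bp. The rest of the 10 highest-ranked regions without matching lists were chr1:121914465-121915282, chr12:34456-35085, chr2:126516794-126517449, chr4:19927905-19928744, chr8:13549868-13550649 and 1 region on an unplaced scaffold.

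Equal ends did not mean equal scores. In the 1293 regions with the same ends in all 4 lists, the 4 scores were all different in 722 and all equal in 12. The lowest and highest score differed by a median of 16.4% of their mean. PT list 2, the shortest list with 5120 peaks, gave the highest score, alone or tied, in 883 of these regions, against 368, 275 and 192 for PT lists 1, 3 and 4. Equal scores were more frequent among PT lists 1, 2 and 3 (14.2% to 21.4% of the regions per pair) than between PT list 4 and any of them (5.34% to 6.497%).

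The PT-only regions ranked above the rest of the PT lists by score. They supplied 2066 to 2072 peaks per PT list, which was 31.9%, 40.4%, 28.3% and 31.2% of the peaks of PT lists 1 to 4. The median percentile of these peaks was 61.8, 58.8, 61.8 and 56.5 in PT lists 1 to 4. For the other peaks of the same lists it was 41.9, 40.03, 44.8 and 47.3. The gap was narrowest in PT list 4. A peak held by 4 lists has to pass the score minimum 4 times, so part of this gap follows from the rule, and it was not tested. Of the 710 regions in 3 PT lists only, the median mean percentile was 32.1, against 58.0 in the PT-only regions. Regions that all 4 PT lists shared with HT lists ranked higher than the PT-only regions. Their medians were 60.4, 61.6, 68.6 and 76.4 for regions in 1, 2, 3 and 4 HT lists.

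The share of PT-only peaks did not rise steadily with score. With each PT list divided by score into deciles, from 1 (lowest) to 10 (highest), they made up 14.9% ± 6.98 of the peaks in decile 1 (SD, n = 4 lists) and 45.3% ± 13.6 in decile 6. In decile 10 the share was 36.04% ± 2.40. The peaks that took their place at the top were those also found in an HT list, which were 17.6% to 18.3% in deciles 4 to 6 and 50.96% ± 3.39 in decile 10. Peaks in fewer than 4 PT lists and no HT list went from 60.9% in decile 1 to 13.002% in decile 10. PT list 4 differed from the others at the low end, with 24.7% PT-only peaks in its decile 1. PT list 2 differed in the middle, with 63.1% in its decile 6. The highest PT-only share lay in decile 6 in PT list 2 only. It lay in decile 7 in PT list 1 (49.3%), 9 in PT list 3 (40.4%) and 8 in PT list 4 (39.8%).

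**Figure D2:**
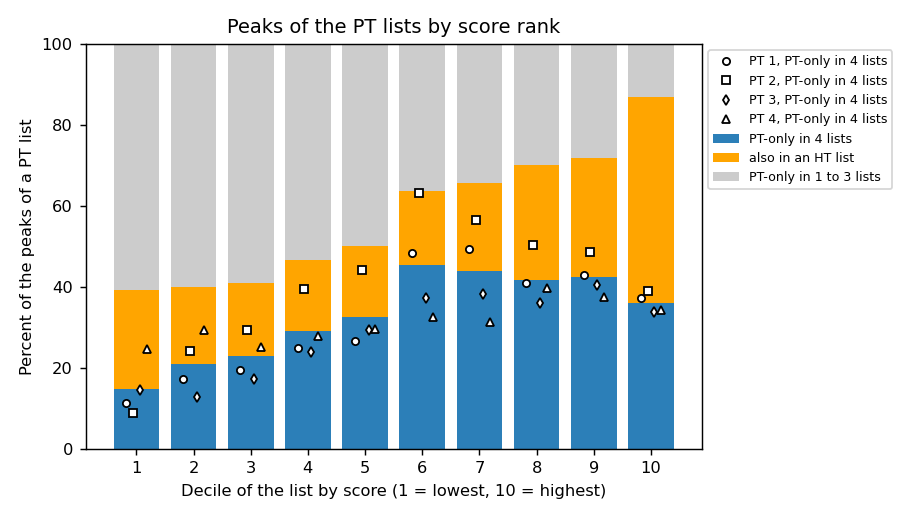
Peaks of the PT lists sorted by score into deciles (x axis); bars give the mean percent over the 4 PT lists that were PT-only in all 4 lists (blue), also in an HT list (orange) or PT-only in 1 to 3 lists (grey), and symbols give the blue share in each PT list. The mean blue share is highest in decile 6, at 45.3%, and the mean orange share in decile 10, at 50.96%. Of the single lists, only PT list 2 has its highest blue share in decile 6.

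Ranks differed between lists for many regions. The highest and lowest percentile of a region among the 4 lists lay a median of 18.0 points apart, over 25 points in 735 regions and at most 5 points in 278. All 4 lists put the region above the 50th percentile by score in 913 cases and at or below it in 401, and 752 regions fell on both sides. In 147 regions all 4 percentiles were above 90. PT list 4 gave the lowest percentile in 956 regions (46.3%), against 249, 501 and 360 for PT lists 1, 2 and 3.

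The PT-only regions were about as wide as regions in general. Their median width was 503 bp (quartiles 391 and 594 bp), that of the HT-only regions 527 bp and that of all regions 499 bp. Only 62 (3.001%) were over 1000 bp wide, compared with 551 of the 1074 regions that all 4 PT lists shared with an HT list (51.3%). Merging peaks of more lists widens a region, and a wide region is more easily met by another list, so this contrast is in part built in. Within the PT lists, the peaks of PT-only regions had median widths of 465, 458.5, 471 and 472.5 bp in lists 1 to 4, against 487, 501, 488 and 499 bp for all other peaks. In each of the 4 lists the PT-only peaks had the lower median.

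Among the PT-only regions, the narrow classes had the highest median score percentiles. The narrowest width of any peak in the 8 lists was 202 bp. The 46 PT-only regions of 201 to 220 bp had a median mean percentile of 95.7, and none was under 91.2. With 221 to 260 bp the median was 91.3 (90 regions), from there to 300 bp 85.6 (95 regions), with 301 to 400 bp 66.8 (322 regions) and with 501 to 700 bp 47.7 (759 regions). Above 700 bp the median was 53.8 to 54.5. Across the regions of at most 700 bp, Spearman's rho between width and mean percentile was -0.58 (Pearson's r -0.59) in the 1246 with the same ends in all 4 lists and -0.30 (Pearson's r -0.32) in the 533 others. Regions over 700 bp, where the medians were higher than with 501 to 700 bp, were left out of both. No correlation over all widths was computed. These correlations are across regions of the same 4 lists, and regions are not independent replicates. Ends followed the same order up to 1000 bp. That order is in part built in, since a region spans the peaks of all lists and differing ends widen it. The same ends in all 4 lists were found in 95.7% of the regions of 201 to 220 bp, in 74.3% of those of 401 to 500 bp and in 15.7% of those of 701 to 1000 bp.

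The narrow peaks were not confined to the PT-only regions. PT list 1 had 130 peaks of at most 220 bp, of which 61 were in PT-only regions, 58 in regions of fewer PT lists without an HT list and 11 in regions with an HT list. In PT list 4 these numbers were 69, 58, 6 and 5. All peaks of at most 220 bp, in PT-only regions or not, had median percentiles of 93.5, 92.5, 93.6 and 95.6 in PT lists 1 to 4. The lowest percentiles among them were 15.03, 2.71, 7.14 and 89.1. These medians include the peaks of PT-only regions. Ranks were not computed for the narrow peaks outside the PT-only regions alone, so whether those rank as high was not tested. Scores of narrow peaks recurred: the 61 in PT list 1 had 32 different scores. The treatment of duplicate reads is not given in the sources used here, and whether it bears on narrow peaks was not tested.

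**Figure D3:**
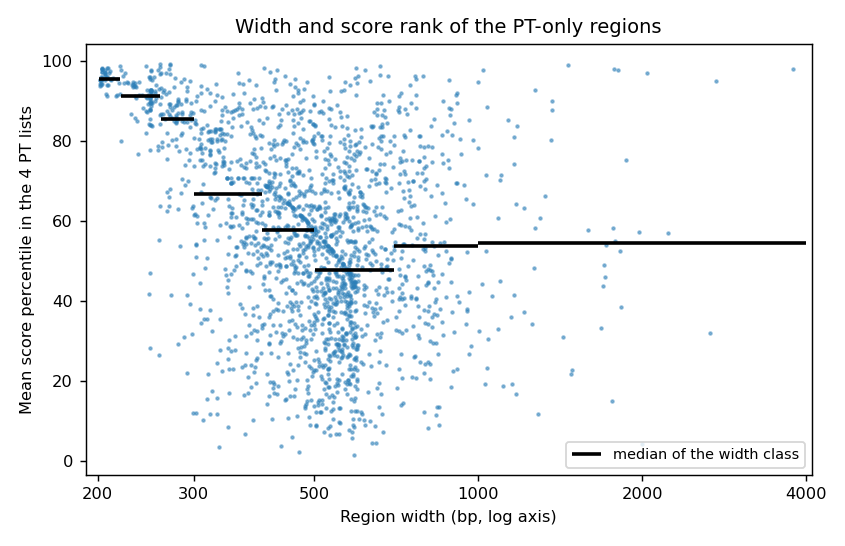
Each point is 1 of the 2066 PT-only regions, with its width in bp on a log axis and the mean percentile of its score in the 4 PT lists; black lines give the median of each width class. Regions of 201 to 220 bp all lie above 91, while those of 501 to 700 bp spread over nearly the whole range with a median of 47.7.

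The 3 narrowest regions named were at the minimum width of 202 bp, namely chr2:57580721-57580922, chr3:3421701-3421902 and chr6:25447690-25447891. All 4 lists gave the same ends in each. Scores of the region on chromosome 2 were 119.26 in PT lists 1, 2 and 3 and 106.8 in PT list 4. Those on chromosome 3 were 126.98, 136.16, 115.83 and 125.43, and those on chromosome 6 were 112.62, 122.96, 126.98 and 94.83. PT list 3 gave the same 126.98 on chromosome 6 as PT list 1 on chromosome 3. The nearest HT peaks lay 26541, 38804 and 22512 bp away.

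At the other end, the widest region was chr2:73884967-73888750, 3784 bp wide, with the same ends in all 4 lists and scores of 200.49, 197.98, 203.28 and 202.6. The next widest was chrW:1839974-1842704 (2731 bp). There PT list 4 gave a peak of 2731 bp, while PT lists 1 and 2 gave 1881 bp and PT list 3 gave 1870 bp. Its nearest HT peak was 181339 bp away. After it came chrZ:25671861-25674526 (2666 bp), where the 4 lists shared the start and gave 3 different ends. Its scores were 60.3, 46.12, 49.31 and 48.25, with percentiles from 14.4 in PT list 2 to 60.2 in PT list 1.

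Chromosomes 1 to 5 held 1064 PT-only regions (51.5%), chromosomes 6 to 10 held 228 (11.04%), chromosomes 11 to 33 held 431 (20.9%), Z 120 (5.81%), W 36 (1.74%) and scaffolds 187 (9.05%). Of all regions, these classes held 50.5%, 12.4%, 23.1%, 8.40%, 0.433% and 5.22% in the same order. The share on chromosomes 1 to 5 was thus close to that of all regions, while those on W and scaffolds were above it. All 32 numbered chromosomes with peaks had at least 5. Per Mb of chromosome up to its last peak there were 1.75 regions on chromosomes 1 to 5, 1.53 on chromosomes 6 to 10, 2.14 on chromosomes 11 to 33, 1.45 on Z and 5.35 on W. The HT-only regions numbered 2.94, 3.12, 5.85, 5.85 and 1.34 per Mb in the same order. The HT-only set is the larger, 4234 against 2066 regions, and the sets were not compared by chromosome at equal list lengths. With the full lists, W was the only chromosome with more PT-only than HT-only regions, 36 against 9. HT lists had peaks on W too, in these 9 regions and in part of the 61 W regions that all 4 PT lists held. Chickens carry W in females alone, the sex of the birds is not given, and its part in these counts was not tested.

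The share of regions common to all 4 PT lists that no HT list held also varied by chromosome class. It was 76.5% on chromosomes 1 to 5, 67.9% on 6 to 10, 61.0% on 11 to 33, 59.0% on W, 50.6% on Z and 45.7% on scaffolds. Single chromosomes ranged from 5 of 19 (26.3%) on chromosome 16 and 6 of 19 (31.6%) on chromosome 22 to 137 of 160 (85.6%) on chromosome 4 and 18 of 21 (85.7%) on chromosome 17. The density of HT peaks differs in the same places, and its part in these shares was not tested. Median widths by class were 475 bp on W to 521 bp on Z, and median mean percentiles were 53.5 on scaffolds to 59.4 on W.

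**Figure D4:**
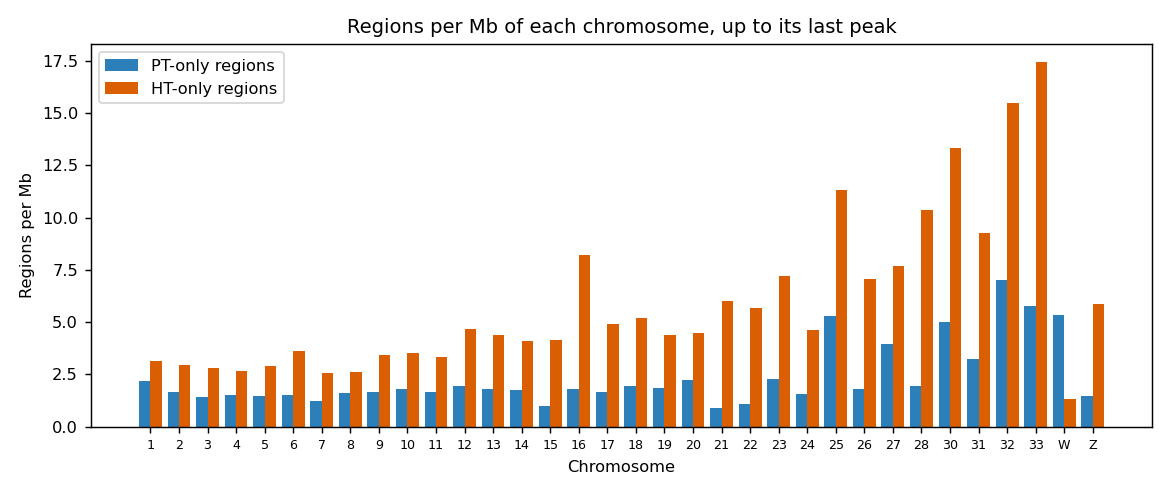
Bars give PT-only (blue) and HT-only (orange) regions per Mb on each chromosome, with the length taken up to the last peak of any list. PT-only density stays between 0.877 per Mb on chromosome 21 and 7.03 per Mb on chromosome 32. W is the only chromosome where the blue bar is the taller one. The HT-only set is the larger, with 4234 regions against 2066.

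Along the chromosomes the PT-only regions were spread thinly, with a few dense stretches. Of 1067 windows of 1 Mb over all chromosomes, 251 held none, 319 held 1, 425 held 2 to 4 and 72 held 5 or more. Those 72 windows held 474 of the PT-only regions on chromosomes (25.2%). Counts by 10 Mb part leave out the shorter last part of each chromosome. On chromosome 2 that last part held more regions than any full part. Full 10 Mb parts of chromosome 2 held 7 to 22 regions. Those of chromosome 3 held 10 to 23 and those of chromosome 4 held 8 to 22. Chromosome 1 had 12 to 47, with a median of 19, and the 47 lay between 70 and 80 Mb. On Z the part between 70 and 80 Mb held 66 of the 120 regions and the other full parts 4 to 11. That part of Z also held 193 HT-only regions, so it was dense in both sets. Regions within 1 Mb of a chromosome's start or last peak made up 10.7% of the PT-only regions on chromosomes, against 10.3% of all regions and 26.5% of the regions that all 4 PT lists shared with an HT list.

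The densest window was chromosome 1 between 76 and 77 Mb, with 21 PT-only regions, and it was singled out after its values were seen. They spanned 564.2 kb, from 76043518 to 76607719. The window held 31 peaks in each of the 4 PT lists and 25 to 30 in the HT lists, and 14 HT-only regions lay in it as well. The nearest HT peak was 54 to 94981 bp from these 21 regions, with a median of 1758 bp. In 15 of the 21 all 4 PT lists gave the same ends. Mean percentiles ran from 1.502 to 90.2, with a median of 63.0.

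Several of these 21 regions recurred with the same layout. A region of 578 bp was followed by one of 644 or 654 bp after a gap of 254 to 256 bp at 3 places, which start at chr1:76062246, chr1:76201335 and chr1:76526342. At the first place the 578 bp region had scores of 62.5, 65.87, 64.15 and 64.15 in PT lists 1 to 4, at the next 69.84, 69.84, 68.17 and 63.55, and at the last 65.03, 57.97, 65.03 and 60.75. The second region of the pair had scores of 99.07, 85.65, 83.39 and 85.65 at the first place, 74.08, 74.08, 80.01 and 67.3 at the next, and 52.5, 53.87, 51.57 and 56.32 at the last. The 578 bp region was thus at a like level in the 3 places, and its neighbour went from well above it to below it.

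Other widths in this window also came up more than once. Regions of 359 bp started at chr1:76043518 and chr1:76491014, and regions of 808 bp at chr1:76150289 and chr1:76581379. Recurring widths of single regions were counted in this window only, and equal widths also occurred elsewhere on chromosome 1. Over the whole genome, 20 pairs of neighbouring PT-only regions lay within 1 kb of each other. Allowing 12 bp in each width and in the gap, 5 of these pairs matched another pair, namely the 3 above, and chr2:81688882-81689213 with a pair on an unplaced scaffold (332 bp, a gap of 684 bp, then 796 and 800 bp). Among 41 such pairs of HT-only regions, 0 matched. Whether these places share sequence, and how reads that map to several places were treated, was not analysed here.

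Neighbouring PT-only regions lay a median of 279.7 kb apart (quartiles 77.7 and 722 kb, 1969 gaps). The shortest gap was 49 bp and the longest 4.99 Mb. By class the median gap was 364 kb on chromosomes 1 to 5, 411 kb on 6 to 10, 236 kb on 11 to 33, 115 kb on Z, 119 kb on W and 18.8 kb on scaffolds. The HT-only set is larger and had a median gap of 125 kb. When every list was cut to its 5120 strongest peaks, the sets were of similar size, 1620 PT-only and 1707 HT-only, and the median gaps were 366 and 282 kb. The lower quartiles then were 104 and 54.4 kb, while gaps of at most 1 kb made up 0.722% and 0.248%. These differences were not tested.

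**Figure D5:**
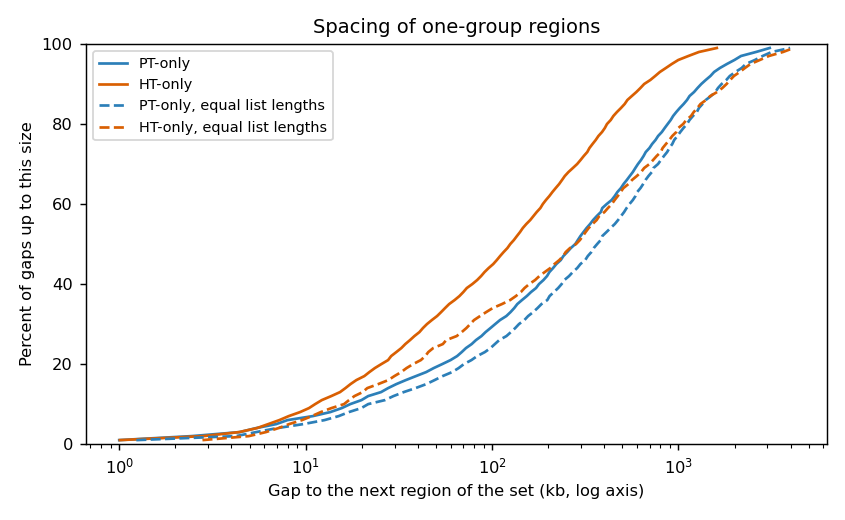
Percent of gaps between neighbouring regions up to the size on the x axis (kb, log axis), for PT-only (blue) and HT-only (orange) regions from full lists (solid) and from equal numbers of peaks per list (dashed). The solid blue curve lies to the right of the solid orange one, with medians of 279.7 and 125 kb, and the dashed curves are closer, with medians of 366 and 282 kb.

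Close clusters were few. With gaps of at most 10 kb, 244 of the 2066 PT-only regions (11.8%) fell into 112 clusters, of which 94 had 2 members, 17 had 3 and 1 had 5. The HT-only set had 15.2% of its regions in such clusters. Scaffolds held 81 of the 244 clustered regions, 43.3% of the scaffold regions, against 8.55% on chromosomes 1 to 5. The cluster of 5 lay on an unplaced scaffold over 24480 bp, with region widths of 221 to 660 bp. Of the next 4 by member number and then shortest span, 2 were on scaffolds and 2 on chromosome 1.

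The first of those on chromosome 1 was chr1:76056509-76063721, in the dense window above, which ended with the 578 and 644 bp pair. The other was chr1:48117681-48126437, with regions of 372, 469 and 383 bp. In each of its regions all 4 lists gave the same ends, and PT lists 1, 2 and 4 gave the same score, 46.83, 65.27 and 81.77 from left to right, while PT list 3 gave 44.23, 61.27 and 76.62. Scores in this cluster therefore rose from left to right in every list, from a mean percentile of 16.6 to 83.5. The nearest HT peak was 13891 bp or more from each of these 3 regions.

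With gaps of at most 100 kb, the largest group was chr1:76043518-76236020, with 12 regions over 193 kb. It was followed by 10 on chr25:1469370-1935075, 10 on a scaffold and 9 on chr2:148907687-149016527. Scaffold regions were concentrated too. Of 220 scaffolds with a peak, 63 had a PT-only region, 39 of them a single one, and the 4 with most held 100 of the 187.

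The regions with the highest mean percentile of each class were narrow on chromosomes 1 to 5, 11 to 33 and Z and wider elsewhere. On chromosomes 1 to 5 it was chr1:172115526-172115785 and on Z chrZ:59603880-59604151, which were 260 and 272 bp wide and 38554 and 45018 bp from the nearest HT peak. On chromosomes 11 to 33 it was chr28:3463259-3463467, 209 bp wide, with scores of 211.32, 224.05, 224.05 and 205.69 and an HT peak 3466 bp away. On W it was chrW:5737217-5737876, 660 bp wide, 180516 bp from the nearest HT peak. A second PT-only region lay just before it, and the pair spanned chrW:5736280-5737876. The strongest scaffold region was 1776 bp wide, with scores of 198.47 in PT lists 1, 2 and 3 and 207.27 in PT list 4.

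Absence from the HT lists did not mean distance from HT peaks. The nearest peak of any HT list was a median of 11.9 kb from a PT-only region (quartiles 3.61 and 34.8 kb), over the 2007 regions on chromosomes or scaffolds with an HT peak. It lay within 1 kb for 191 regions (9.52%), within 10 kb for 921 (45.9%) and within 100 kb for 1903 (94.8%). For HT-only regions the nearest PT peak was a median of 19.8 kb away, with 6.40% within 1 kb. The HT lists hold more peaks, and with 5120 peaks from every list the order turned, with medians of 27.7 kb for PT-only and 20.1 kb for HT-only regions. In the full lists, the nearest other PT peak was a median of 24.5 kb from a PT-only region, with 4.21% within 1 kb. No distances were computed for regions placed at random, so the part of HT peak density in these distances was not tested.

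Some regions passed the rule by a few bases. In chr1:128733211-128733759 a single base lay between the region and an HT peak, although all 4 PT lists gave the same ends. That region had scores of 59.06, 63.11, 80.37 and 47.93 in PT lists 1 to 4. In chr1:114668644-114669294 and chr12:34456-35085 7 bp lay between. Just outside the rule, the 151 regions in all 4 PT lists and a single HT list were wider, with a median of 744 bp, and the longest overlap of a PT with an HT peak in them had a median of 395 bp. Only 2 of them had an overlap of at most 100 bp. Of the 3 with the highest mean percentile, 2 were on scaffolds. The other was chr30:992634-993142, where PT lists 1, 2 and 3 each gave a 204 bp peak with a score of 224.05, PT list 4 gave 118.4, and HT list 4 a peak of 45.83.

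To see the regions in lists that had no part in choosing them, the rule was applied to 3 PT and 3 HT lists at a time, and the result was looked up in the PT and the HT list left out. Over the 16 ways to do this, 2132 to 2705 regions were chosen. The PT list left out held 98.0% of them on average for PT list 1, 98.2% for PT list 2, 97.0% for PT list 3 and 78.5% for PT list 4. Of all regions formed from the same 6 lists, the PT list left out held 15.2% to 19.4%. The HT list left out held 1.20% to 2.59% of the chosen regions, against 28.4% to 31.1% of all regions. Regions that 3 HT lists lack are by selection less likely to be in another HT list. Regions that 3 PT lists hold are likewise more likely to be in another PT list, and all regions include those with no PT peak. Lists of a group also share peak ends, so these percentages describe the lists and carry no p-value.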

How the data were processed

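Nrf2 CUT&Tag peak lists of 4 PT and 4 HT broiler liver samples were used, grouped by their titles. In the submitters' processing notes stand galGal6 as the build, Bowtie2 2.2.4 and cutadapt 1.9.2, without settings. Peak names begin with MACS. Not given in the sources used here are the caller's version and settings, any control and the treatment of duplicates. The score of each peak is the authors' value as deposited, from 40 to 3100, on a scale that is not stated, and it was used only as a rank within its list (mean rank for ties, as a percentile). Starts were raised by 1 base. Peaks that overlapped or touched were merged, and a list held a region with at least 1 bp of peak. Clusters joined gaps of at most 10 kb.

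The members, lists and alternatives were chosen with earlier results of these data known. Named regions followed a fixed rule: the 5 clusters with most members, the 3 narrowest and 3 widest regions, the region with the highest mean percentile in each of 6 chromosome classes, the 10 such regions without matching ends, the 3 closest to an HT peak, and the 3 highest in all 4 PT lists and 1 HT list. Scaffold regions are given by number only. The 1 Mb windows, the repeated pairs, the groups by 100 kb gaps on named chromosomes and the table of narrow peaks were chosen after the values were seen. The correlation of width with rank and its limit of 700 bp were not among the planned results. No test between groups was run, because the rule used presence in the lists. Dixon's test looked for an outlying PT list in 11 measures. Genes and motifs were not analysed, since no galGal6 sequence or annotation was used. In simulated lists the code gave the planted numbers of regions, PT-only regions, regions with shared ends and clusters. Only these totals were compared. Python 3.11.15, numpy 2.4.6, pandas 2.3.3, scipy 1.17.1 and matplotlib 3.10.9 were used.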

Additional observations from a re-analysis of the deposited data

Results flagged for a closer look

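PT list 4 lay far from the other PT lists in 2 of 11 measures by Dixon's test. The test passes about 1 in 20 groups of 4 independent values by chance, a rate that does not apply here. The 2 measures are linked, and they were added after the list had been seen to differ. Both rest on presence in the lists, which the rule uses, and the lists share peak ends. The outcome therefore only describes the lists. PT list 4 was the one missing from 570 of the regions held by the 3 other PT lists and no HT list, against 37 to 63 for the other lists, a gap of 0.951 of the whole range. When the regions were chosen without it, PT list 4 held 78.5% of them on average, against 97.0% to 98.2% for the other lists, a gap of 0.936 of the range. The measures in which no list passed were the number of PT-only peaks, their share of the list, their median width and median percentile, their shares in the top and bottom deciles and under 260 bp, the regions in which a single list had ends of its own, and the regions ranked lowest in a list.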

How the results depend on the processing

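Of 108 alternative values, 80 stayed within 1.5 times (for the number of regions) or within the spread of the PT lists or a 95% interval (exact binomial for shares, by order statistics for medians). The 95% intervals treat regions as independent, which they are not. They serve only as a yardstick for the size of a change, and the count of 80 is a description. With fewer peaks, the strongest 50% of every list gave 986 regions, a median width of 427 bp, a median gap of 621.6 kb, 6.998% in clusters, a median percentile of 79.8 (above 50 by construction) and a median of 27.4 kb to the nearest HT peak. The same number of peaks per list gave a width of 483 bp, a gap of 366.3 kb, 9.14% in clusters, a percentile of 67.9 and 27.7 kb to the nearest HT peak. Merging peaks up to 500 bp apart gave a gap of 303.2 kb, 9.78% in clusters and 13.6 kb. Chromosomes only gave 56.6% on chromosomes 1 to 5, a gap of 309.8 kb, 8.67% in clusters and 13.6 kb to the nearest HT peak. Gaps of 1 kb and 100 kb put 1.94% and 44.7% of the regions in clusters. Leaving out each list in turn gave 2094 to 2641 regions, 62.2% to 78.2% with the same ends in every PT list used, widths of 480 to 504 bp, gaps of 210.8 to 274.3 kb, 11.8% to 12.7% in clusters, 51.2% to 51.6% on chromosomes 1 to 5, percentiles of 56.4 to 58.1, and 11.6 to 15.4 kb to the nearest HT peak. The highest counts and shared ends, and the shortest gap, came without PT list 4. Apart from what the settings themselves fix, the cause was not tested. Of the 2066 regions, 1985 overlapped a region that passed with a cover of 50%, 1972 with merging over 500 bp, 1492 with equal list lengths and 913 with the strongest 50%. The alternatives for the distance to the nearest HT peak were added after the data were seen. No paired analysis was possible because the results come from no test. The genes and motif result was not run. The number of peaks also depends on read depth, which is unknown.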
